A study of Mus musculus with 6 samples.

Results

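The Notch pathway genes described here are 10 genes of the core pathway: the receptors Notch1 and Notch2, the ligands Dll1, Dll4 and Jag1, and the target genes Hes1, Hes5, Hey1, Hey2 and Heyl. They were chosen by name, and all 10 were found among the 32285 genes of the count table. The cells came from the striatum of male wild type C57BL/6 mice at postnatal day 3 (P3) or at 3 months (3m). They were enriched with magnetic beads for ACSA2, an astrocyte surface antigen, and profiled with a droplet kit that counts 3′ ends of mRNA as unique molecular identifiers (UMIs). There were 3 libraries per age, and each preparation joined tissue of several mice, so a library is a pool and not an animal. Because the beads select for astrocytes, every other cell type is present only as far as it escaped this selection.

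In Notch signalling, a ligand of the Delta or Jagged family on one cell binds a Notch receptor on its neighbour. The receptor is then cut by proteases, and its intracellular part enters the nucleus, where it joins the DNA-binding protein Rbpj and switches on Hes and Hey genes. These encode transcriptional repressors. In the brain the pathway is known for keeping neural progenitors undifferentiated and for its part in glial fate, and in blood vessels for its part in arterial and mural cell identity.

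Of 16690 barcodes, 14373 carried the authors' cell type annotation, and 9992 of these were astroglial (8874 at P3 and 1118 at 3m). Astroglial cells had a median of 5456 to 9665 UMIs per library at P3 and of 2977 to 5326 at 3m, so the 3m values rest on fewer molecules. Some groups came almost wholly from 1 library: 1156 of the 1211 cells of astroglial sub-cluster 1 were from P3 replicate 1, 182 of the 184 cells of sub-cluster 14 from 3m replicate 1, 992 of the 1019 cells of sub-clusters 4 and 12 from P3 replicate 3, and 346 of the 349 cells of endothelial cluster END_12 from P3 replicate 3. Among the annotated cells, 28 barcode sequences occurred in more than 1 library. Levels are given as CPM, the UMIs of a gene per 1000000 UMIs in the same sum of cells, and levels of different genes were not compared with each other.

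All 10 genes are protein-coding. In the GENCODE annotation of GRCm38, Notch1 lies at chr2:26457903-26516663 on the minus strand and Notch2 at chr3:98013527-98150361 on the plus strand. The ligand genes are at chr17:15367354-15376872 (Dll1, minus), chr2:119325784-119335962 (Dll4, plus) and chr2:137081456-137116644 (Jag1, minus). The target genes are at chr16:30064384-30067796 (Hes1, plus), chr4:154960923-154962371 (Hes5, plus), chr3:8663359-8667256 (Hey1, minus), chr10:30832359-30842801 (Hey2, minus) and chr4:123233556-123249875 (Heyl, plus). Hes5, Dll1, Dll4 and Notch1 each overlap an annotated transcript on the opposite strand.

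RefSeq start sites were at hand for 7 of the 10 genes, with 8 windows in all, and the target genes Hes1, Hey1 and Heyl were not searched. The 250 bases before each start were searched on both strands for GTGGGAA, the letters of the core Rbpj binding motif. Hes5 and Hey2, the target genes searched, each had a match, the receptors and ligands had none, and 5.42% of all 32851 windows of this length held one. Both sequences are shown because they hold these matches, with the matching letters in capitals. They are from GRCm38.p6, at chr4:154960673-154960922 on the plus strand for Hes5 and chr10:30842784-30843033 on the minus strand for Hey2.
Hes5: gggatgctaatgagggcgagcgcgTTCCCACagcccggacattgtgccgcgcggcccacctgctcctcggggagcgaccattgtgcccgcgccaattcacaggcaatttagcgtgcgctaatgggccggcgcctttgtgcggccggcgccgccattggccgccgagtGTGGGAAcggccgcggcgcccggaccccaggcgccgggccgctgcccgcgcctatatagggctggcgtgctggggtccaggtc
Hey2: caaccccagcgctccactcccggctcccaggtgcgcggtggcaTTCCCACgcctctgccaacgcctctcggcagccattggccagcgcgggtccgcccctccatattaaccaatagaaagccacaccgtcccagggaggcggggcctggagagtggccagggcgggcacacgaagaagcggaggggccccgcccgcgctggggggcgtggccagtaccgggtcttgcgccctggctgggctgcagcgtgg
The Hes5 window held 2 matches, which began 226 and 83 bases before the start and lay on opposite strands. The Hey2 window held 1, which began 207 bases before the start. A match describes these letters and does not show binding.

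Levels were first set out over the authors' clusters. These were made from expression, so differences between clusters are descriptions with no test, and a library is given for a cluster only where it had at least 10 cells there. The receptor Notch1 was broadly present. Its level was 110, 65.5 and 84.6 CPM in the 3 libraries of AST_P3_3, an early postnatal astrocyte cluster, and 107, 84.1 and 96.6 CPM in AST_3m_5, the main adult astrocyte cluster. In the endothelial cluster END_7 of P3 it was 171, 129 and 94.0 CPM. The ranges of these clusters overlapped, and oligodendrocytes of cluster ODC_2 were lower at 17.8, 8.56 and 5.04 CPM.

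Notch2 was more uneven among astrocytes. AST_P3_11 had 189, 269 and 376 CPM, while AST_P3_3 had 15.99, 29.96 and 37.2 CPM, and the ranges did not overlap. The main endothelial clusters were low, with 4.98, 14.997 and 13.4 CPM in END_7 and 7.12, 19.5 and 12.2 CPM in END_17. The P3 endothelial cluster END_13 was not, with 145, 22.8 and 93.1 CPM, a range that overlapped those of astrocyte clusters. Summed markers of astrocytes were 944 CPM in END_13 and 155 CPM in END_7, and their part in this difference was not tested. In oligodendrocyte precursors (OPC_18) at P3, 2 libraries had no Notch2 UMI and the other had 4.66 CPM.

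The ligands were split over cell types. Dll1, a Delta ligand of progenitors, was highest in OPC_18, with 66.1, 65.7 and 23.3 CPM at P3, and did not overlap the next cluster in order, AST_P3_19 (8.04 ± 5.92 CPM, SD, n = 3). The 13 OPC_18 cells of 3m held 4 Dll1 UMIs, or 56.8 CPM, with an exact Poisson interval of 15.5 to 145 CPM that covers counting error only. Dll4, a Delta ligand known from arteries and sprouting vessels, was found mainly in endothelial clusters. It had 89.2, 84.0 and 72.0 CPM in END_7 and 62.3, 11.7 and 56.0 CPM in the adult endothelial cluster END_17, against 3.84, 3.51 and 4.37 CPM in pericytes (PER_6) at P3. All astroglial cells together held 16 Dll4 UMIs at P3 and 1 at 3m, or 0.206 and 0.224 CPM of their summed UMIs. Jag1 was found in vessels and in part of the astrocytes: PER_6 had 60.9, 126 and 164 CPM, END_7 had 45.5, 79.0 and 75.5 CPM, and AST_P3_11 had 34.9, 51.3 and 70.5 CPM. These ranges overlapped, and all lay above the 2.73, 4.21 and 4.59 CPM of AST_P3_0.

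**Figure D1:**
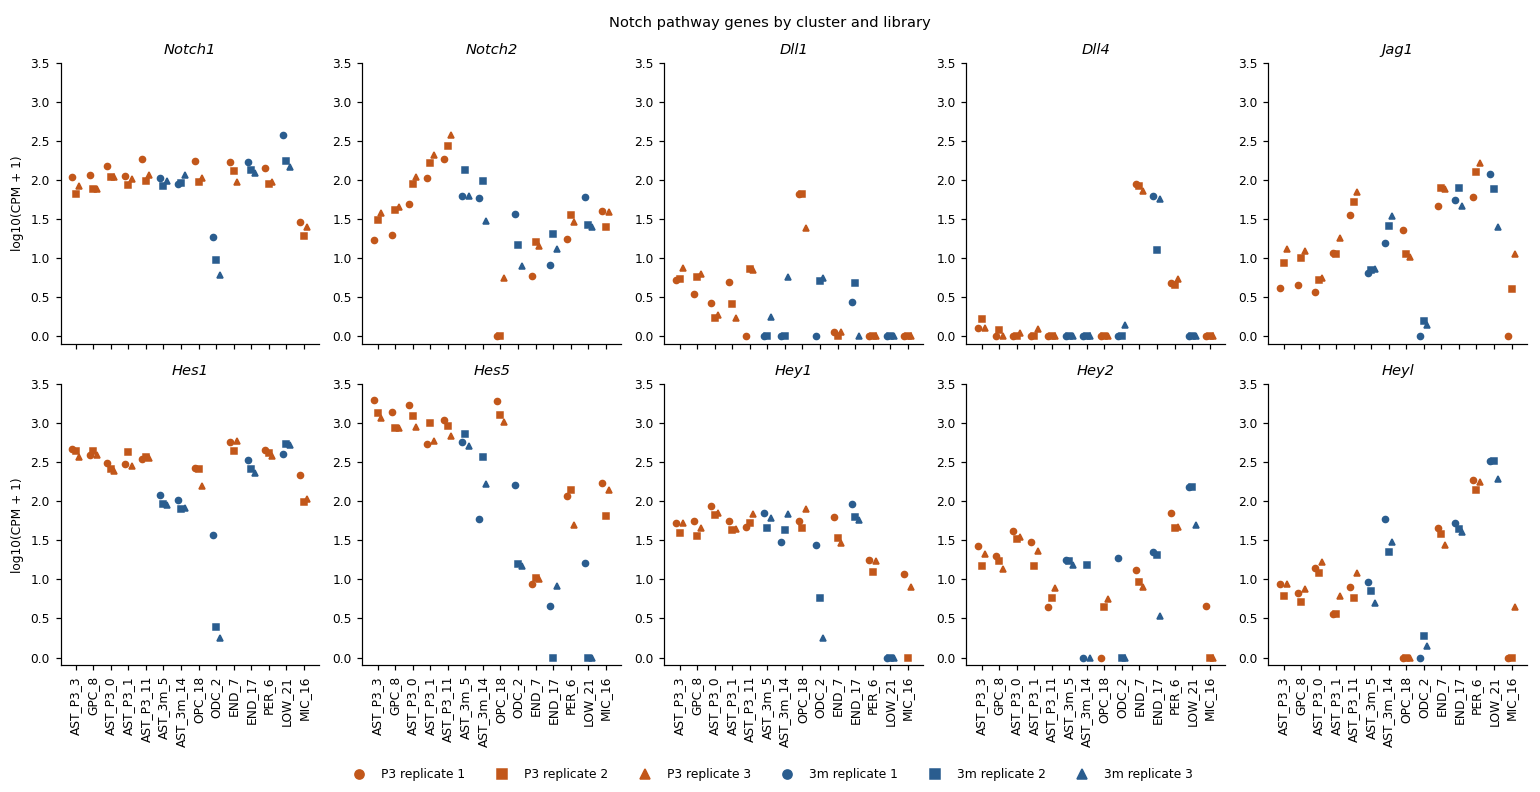
Level of each gene, as log10(CPM + 1), in 14 of the cluster and age groups; each point is 1 library with at least 10 cells in the group, orange for P3 and blue for 3m. Dll4 is high in END_7 and END_17, Dll1 in OPC_18, Hes5 in astroglial clusters and OPC_18, and Heyl in PER_6 and LOW_21.

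Among the targets, Hes5 was high in astroglia and oligodendrocyte precursors. It had 1957, 1339 and 1155 CPM in AST_P3_3 and 1895, 1258 and 1048 CPM in OPC_18 at P3, and these ranges overlapped. END_7 had 7.82, 9.28 and 9.21 CPM. Cells were also reduced to 2000 UMIs each, which left out 1113 of 8874 P3 astroglial cells and 1 of 605 END_7 cells with fewer. Of the cells left, 72.4% of the P3 astroglia kept a Hes5 UMI (95% Wilson interval 71.4 to 73.4%), against 1.32% in END_7 (0.673 to 2.59%). These intervals pool the cells of all libraries and do not cover the spread between libraries. Before this reduction the shares over all cells were 86.1% and 9.42%, at median depths of 7307 and 26510 UMIs. Multiciliated astroglia (AST_P3_19) had less Hes5 than the other P3 astroglial clusters, at 134, 211 and 141 CPM.

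Hes1 was present in all of these lineages, with 581, 434 and 585 CPM in END_7, 462, 434 and 364 CPM in AST_P3_3, and 454, 410 and 374 CPM in PER_6, so that neighbours in the order overlapped. Oligodendrocytes had little of it, with 35.7, 1.48 and 0.776 CPM in ODC_2, where the first value is 4 UMIs in 16 cells, and 1.54 CPM in 1 library and no UMI in the other 2 in ODC_10. Hey1 ranged from 65.0 to 85.2 CPM in AST_P3_0 and from 11.4 to 16.5 CPM in PER_6. Heyl and Hey2, Hey genes known from vascular smooth muscle, were high in mural cells. Heyl had 187, 138 and 174 CPM in PER_6 and 331, 330 and 193 CPM in the 3m cluster LOW_21, and these did not overlap; the next in order was END_17 at 44.4 ± 6.48 CPM (SD, n = 3). Hey2 had 151, 152 and 48.3 CPM in LOW_21 and 70.8, 44.8 and 45.9 CPM in PER_6, which overlapped. LOW_21 held 68 cells with a median of 1948 UMIs, and 5 of its 6 mural markers were detected at a summed 42085 CPM, against 15832 CPM in PER_6 at P3. END_17 at 3m also held 6681 CPM of the mural markers, and their part in its Heyl level was not tested.

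For each gene, the genes whose log2(CPM + 1) followed it most closely over the 23 clusters of at least 50 cells were listed among 12764 genes. Dll4 was followed by Cdh5 (Pearson r = 0.977), the endothelial cadherin, then by Bvht and Kank4. Hes5 was followed by Ptprz1 (r = 0.971), a receptor phosphatase of glia, then by Rnf180 and Mir9-3hg. The closest genes to the others were Dag1 for Notch1 (r = 0.920), Ezr for Notch2 (0.901), Galnt13 for Dll1 (0.848), Bcr for Jag1 (0.885), Zfp36l1 for Hes1 (0.934), Lpar4 for Hey1 (0.958), Slc30a10 for Hey2 (0.946) and Vasn for Heyl (0.962). The clusters share libraries and were defined by expression, so these values are descriptions.

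The comparison of 3m with P3 asked which genes differ between mature and immature astroglia. Hes1 fell and Dll1 was called lower, and no member was called higher. Hes1 had 338, 364 and 293 CPM at P3 and 119, 85.1 and 88.3 CPM at 3m, so every 3m library lay below every P3 library. In edgeR's quasi-likelihood test on the summed UMIs its log2 fold change was -1.59 (SE 0.195, Benjamini-Hochberg adjusted p = 2.11e-05). Of 13530 genes tested, 32.1% were called, where a call needs an adjusted p no larger than 0.05 together with a 2-fold or larger difference, that is 1 on the log2 scale. Of the 10 members, 9 passed the filter on low counts and 2 were called, or 22.2%, below the share over all genes. Their median log2 fold change was 0.07, against -0.04 over all genes.

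Dll1 was close to its detection limit in astroglia. It had 2.69, 2.91 and 2.97 CPM at P3 (222 UMIs in all), and 3m had 3 UMIs (0, 0.542 and 1.36 CPM). The P3 level was 4.27 times that of 3m, with a counting interval of 1.44 to 20.9, and the edgeR log2 fold change was -1.89 (SE 0.675, adjusted p = 0.0329). Of the 18 alternatives, 14 tested Dll1 and 6 of these lost the call. They were the fits without 3m replicate 1 (-1.49, adjusted p = 0.090) or 3m replicate 2 (-1.77, adjusted p = 0.109), without cycling sub-clusters (-1.52, adjusted p = 0.10), in cells free of other-type markers (-1.85, adjusted p = 0.0639), with stricter cells (-0.28, adjusted p = 0.864) and by DESeq2 (-1.94, adjusted p = 0.0729). The stricter cells numbered only 12, 137 and 88 in the 3m libraries. Without P3 replicate 1, 2 or 3, and after libraries were thinned, Dll1 did not pass the filter on low counts.

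Hes5 was lower at 3m but just missed the fold threshold. P3 libraries had 1543, 1118 and 825 CPM and 3m libraries 543, 557 and 457 CPM, with no overlap. The log2 fold change was -0.98 (SE 0.242, adjusted p = 0.00467 by edgeR). Hes5 was called under 8 of the 18 alternatives, which ran from -1.16 to -0.71, among them the fits without P3 replicate 3 (-1.15), 3m replicate 1 (-1.05) or 3m replicate 2 (-1.09), and DESeq2 (-1.01). Hey2 had 31.8, 20.8 and 23.3 CPM at P3 and 15.6, 15.7 and 12.2 CPM at 3m, a log2 fold change of -0.60 (SE 0.230, edgeR adjusted p = 0.0431) that did not reach the fold threshold.

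The receptors and the remaining genes did not pass. Notch1 had 134, 87.7 and 96.2 CPM at P3 and 106, 86.8 and 99.2 CPM at 3m (log2 fold change 0.07, SE 0.183). Notch2 had 41.5, 83.2 and 129 CPM at P3 and 61.3, 119 and 57.7 CPM at 3m (0.13, SE 0.356). The groups overlapped for both. The libraries also differed in their share of astroglia matched to regions outside the telencephalon, which is given below. Jag1 (0.55, SE 0.490), Hey1 (0.16, SE 0.193) and Heyl (0.44, SE 0.274) also overlapped between ages, and their edgeR adjusted p ranged from 0.199 to 0.523.

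**Figure D2:**
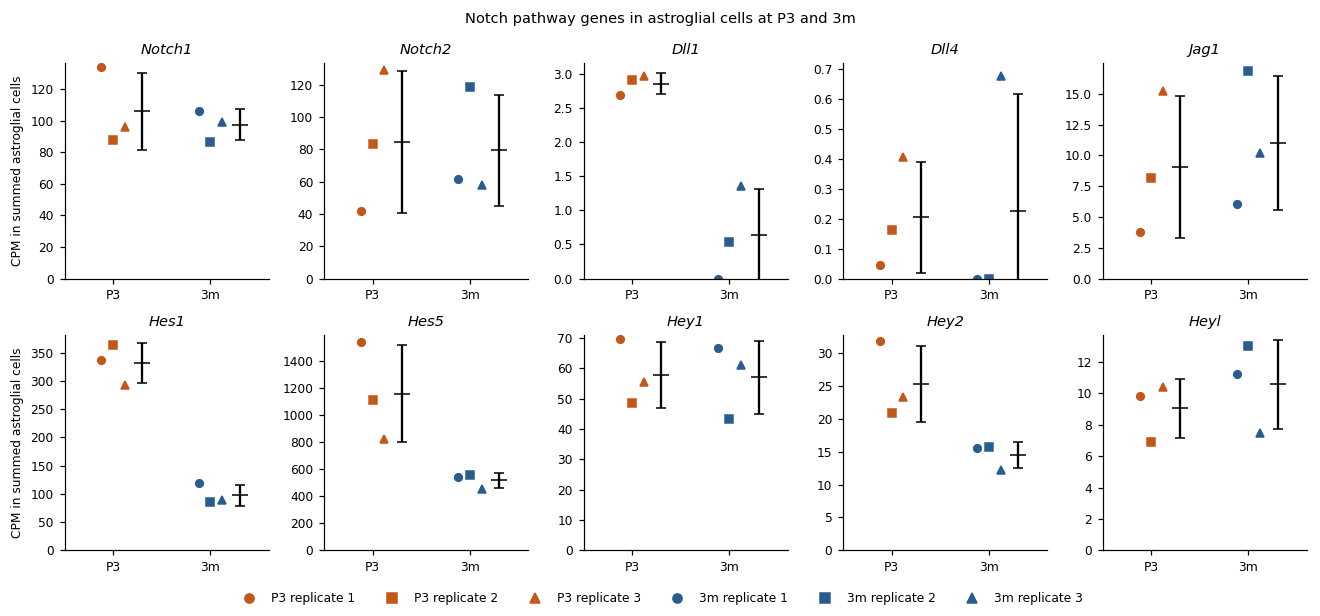
CPM of each gene in summed astroglial cells, with 1 point per library (P3 orange, 3m blue) and the mean ± SD of 3 libraries in black. Hes1 and Hes5 do not overlap between ages, with 3m lower, while Notch1 and Hey1 do.

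Markers of other cells moved with age. Summed oligodendrocyte markers in the astroglial cells were 5.10 to 6.27 CPM at P3 and 703 to 1853 CPM at 3m, and the median mitochondrial share of UMIs was 1.27 to 2.47% at P3 and 5.97 to 8.18% at 3m. In cells with no UMI of 10 endothelial, mural and oligodendrocyte markers, Hes1 was as much lower, at -1.66 (adjusted p = 1.85e-05). In the telencephalic lineage without cycling sub-clusters, a setting chosen after the data were seen, it was -1.42 (adjusted p = 1.58e-06). In cells above 1000 genes and below 5% mitochondrial UMIs it was -1.52 (adjusted p = 0.00026). Those limits left only 12, 137 and 88 cells in the 3m libraries, against 1835, 2951 and 2918 at P3. The fit in cells free of other-type markers also covered the other genes, and Dll1 lost its call in it, as given above. Beyond that fit, the part of the oligodendrocyte markers in the other age differences was not tested.

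Among 54 further pathway genes fixed as 7 lists, 46 were tested, 8 were called higher and 7 lower at 3m, or 32.6%, against 32.1% over all genes. Of the other receptors and ligands, 5 of 7 were tested and 2 were called lower, Notch3 and Dll3. Notch3, a receptor also known from mural cells, had 12.1 ± 4.53 against 50.9 ± 7.86 CPM at P3 (log2 -1.82). Dll3, a Delta-like gene, had 2 UMIs at 3m against 231 in the larger P3 sums. Its P3 level was 6.7 times that of 3m, with a counting interval of 1.82 to 55.4. Dner, an atypical ligand, had a log2 fold change of 0.83, below the fold threshold. Notch4, a receptor known from endothelium, had 0.62 and did not pass. Of the glycosyltransferases, which modify the receptors, none of 5 was called by edgeR, and the 3 with the most UMIs, Lfng (0.39), Poglut1 (-0.14) and Rfng (0.33), had an adjusted p of 0.0728, 0.555 and 0.269. Of the proteases and gamma-secretase parts, the subunits Aph1b (1.11) and Aph1c (1.23) were called higher among 9, while Psenen (0.10), Aph1a (0.12) and the protease gene Adam10 (-0.13) did not pass. Of the nuclear complex, Maml3, a coactivator, was called higher among 8 (2.23) and Rbpj differed by -0.03, with the corepressor gene Ncor1 at -0.46 and the coregulator gene Snw1 at -0.43.

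In the trafficking list, 10 of 11 were tested. Numb, an inhibitor of Notch, (1.21) and Dtx3 (1.04) were called higher, and Neurl1b, a ligase acting on ligands, (-2.89, 2 UMIs at 3m), Dtx2 (-1.61) and Dtx4 (-1.19) lower. The ligase genes Itch (0.57) and Mib1 (0.50) stayed below the fold threshold. Of the Hes and feedback genes, 7 of 9 were tested, with the corepressors Tle2 (2.70) and Tle4 (1.77) called higher and Hes6 (-1.05) lower, while Nrarp, a feedback inhibitor, had -0.72 and Tle1 0.70. Of the proneural genes, 2 of 5 were tested, with 1 called higher and 1 lower, and the higher one, Neurog1, rested on 13 UMIs at 3m against 4 at P3.

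Within the astroglia the genes also followed the sub-clusters that the study matched to telencephalic and non-telencephalic reference cells. These are descriptions, since the sub-clusters were made from expression. The study proposes that the non-telencephalic cells may be contaminants from neighbouring brain regions. They were 151 of 1985, 906 of 3103 and 1949 of 3786 P3 astroglial cells in replicates 1, 2 and 3. At 3m they were 17 of 213, 261 of 546 and 50 of 359. The part of these shares in the spread between libraries and in the age differences over all astroglia was not tested. At P3, Notch2 had 123, 171 and 259 CPM in the non-telencephalic sub-clusters and 41.9, 67.9 and 87.4 CPM in telencephalic sub-clusters that were not cycling, with no overlap. Jag1 had 17.6, 15.1 and 32.6 CPM against 3.14, 5.38 and 5.73 CPM, also with no overlap. At 3m Jag1 had 16.3, 29.7 and 34.7 CPM against 5.47, 5.16 and 5.64 CPM. The first of these values is 1 UMI in 17 cells, under the 48.8 CPM that 3 UMIs would give, so the order is shown in the other 2 libraries.

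Hes5 went the other way. It had 648, 944 and 606 CPM in the non-telencephalic P3 sub-clusters and 1709, 1247 and 953 CPM in the telencephalic ones. At 3m the non-telencephalic values were 65.1, 392 and 165 CPM and the telencephalic ones 570, 706 and 511 CPM. In the 17 non-telencephalic cells of 3m replicate 1, Hes5 and Heyl had 4 UMIs each. Summed oligodendrocyte markers moved with this split at 3m, with 23199, 3525 and 2839 CPM in non-telencephalic and 199.8, 344 and 307 CPM in telencephalic cells, and their part in the 3m differences was not tested. Heyl was 65.1, 22.9 and 26.0 CPM in non-telencephalic cells at 3m against 8.21, 4.13 and 4.03 CPM in telencephalic ones, while at P3 it was 3.34, 2.93 and 8.06 against 11.8, 8.85 and 13.5 CPM. Within the telencephalic lineage alone, the age difference of Heyl was -0.66 (SE 0.344, edgeR adjusted p = 0.114), of the opposite sign to that over all astroglia.

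**Figure D3:**
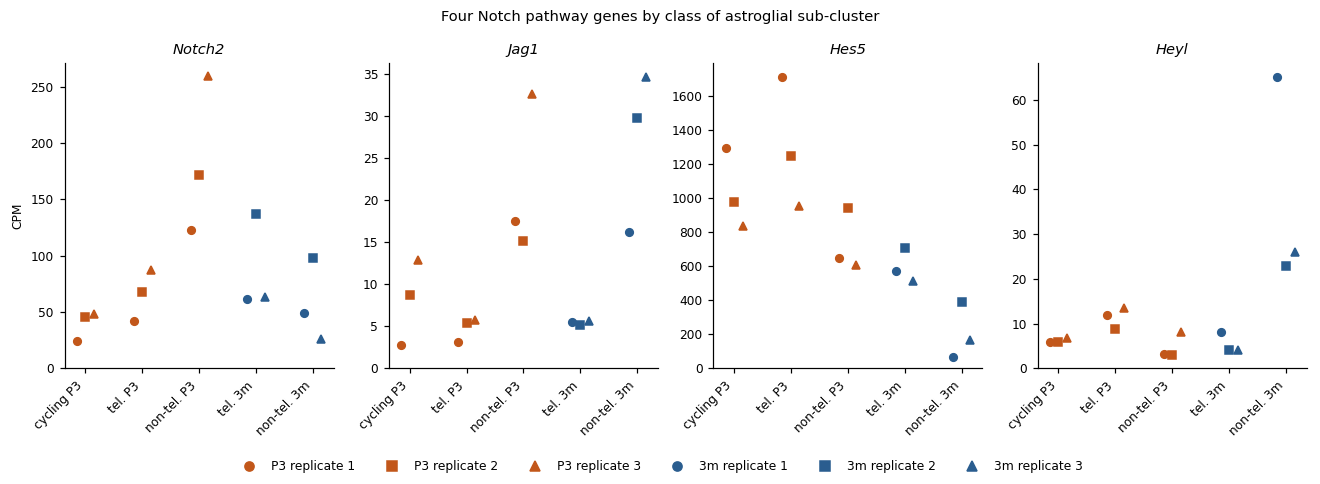
CPM of Notch2, Jag1, Hes5 and Heyl in 5 classes of astroglial sub-cluster (tel., telencephalic; non-tel., non-telencephalic), with 1 point per library, P3 orange and 3m blue. Notch2 and Jag1 are higher and Hes5 lower in the non-telencephalic P3 cells.

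Pseudotime bins ordered 5879 cells of the main lineage from progenitors to adult cells, with P3 libraries in bins 2 to 14 and 3m libraries in bins 15 to 19 where at least 10 cells were present. Bins and ages hardly share cells, so along the whole axis the bin and the age cannot be told apart. Within P3, late bins (13 and 14) were set beside early ones (2 to 6). Pseudotime was computed from the same expression values, so these differences are descriptions with no test. Hes1 had 419, 461 and 415 CPM early and 225, 236 and 175 CPM late, lower in all 3 libraries (log2 of the means -1.02). Notch2 had 15.6, 37.1 and 42.3 CPM early and 44.5, 89.5 and 126 CPM late (1.45). Notch1 was also higher late in all 3 libraries, at 117, 76.7 and 78.3 CPM early and 130, 110 and 108 CPM late (0.36).

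The Hey genes were higher late in all 3 libraries. Hey1 had 53.1, 33.1 and 45.7 CPM early and 83.1, 63.0 and 66.9 CPM late (0.69), Hey2 19.8, 13.9 and 13.97 CPM early and 34.3, 29.7 and 31.0 CPM late (0.99), and Heyl 3.13, 2.99 and 5.93 CPM early and 12.4, 10.8 and 16.2 CPM late (1.71). Hes5 differed in no common direction, with 1324, 862 and 900 CPM early and 1345, 1090 and 782 CPM late. Jag1 was lower late in each library, at 2.44, 4.85 and 6.11 CPM against 4.17, 9.21 and 13.1 CPM. Dll1, at low levels, had 2.08, 5.48 and 6.35 CPM early and 2.25, 1.03 and 0.711 CPM late (-1.80), without a common direction.

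**Figure D4:**
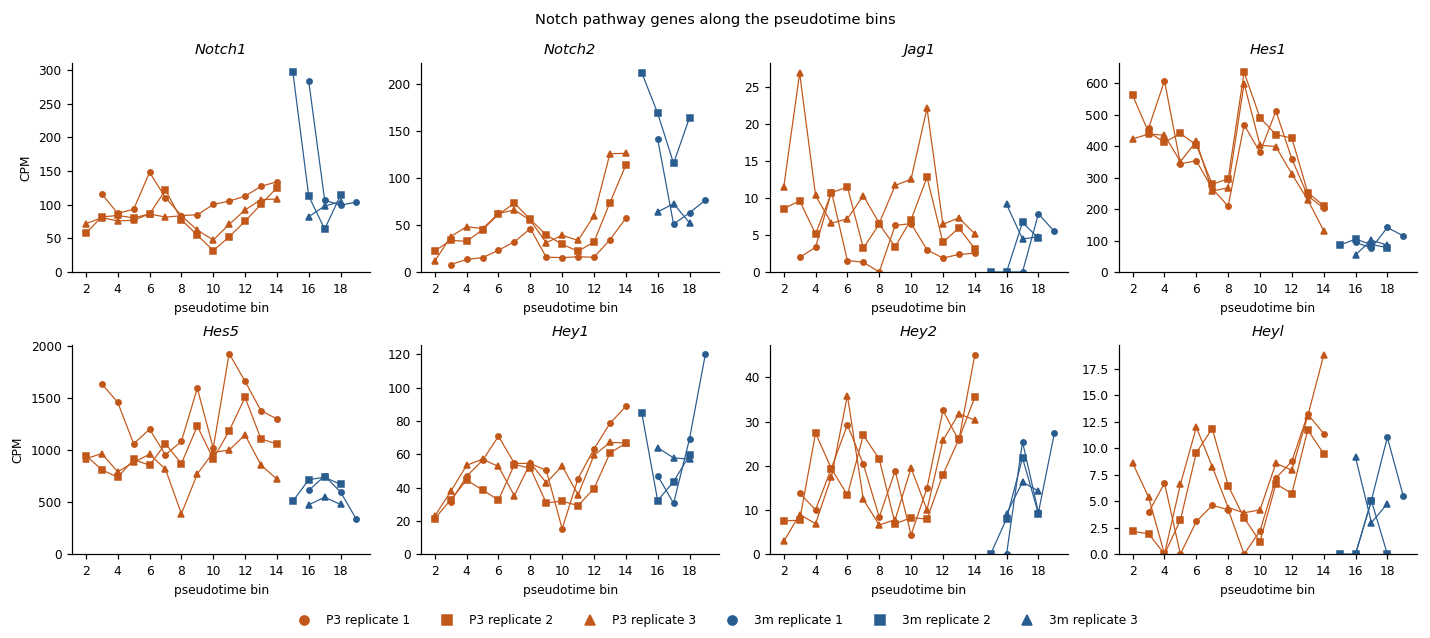
CPM of 8 genes along the pseudotime bins, with 1 line per library (P3 orange, 3m blue) and a point where a library had at least 10 cells in the bin. Hes1 falls and Hey1 and Hey2 rise from early to late P3 bins, and Hes5 is lower in the 3m bins.

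Cycling and non-cycling P3 astroglia were compared next, with cycling cells defined by UMIs in at least 2 of Mki67, Top2a and Cdk1 and each library used as a block. Cycling cells had more UMIs (median 11945 to 16713 per library, against 5141 to 8966). Of 13306 genes, 17% were called, and of the 9 members tested 2 were called, or 22.2%. Notch2 was lower in cycling cells, at 23.8, 46.6 and 58.8 CPM against 48.3, 97.4 and 153 CPM in the same libraries (log2 -1.08, SE 0.0771, edgeR adjusted p = 3.41e-08). Dll1 was higher, at 3.23, 4.89 and 5.11 CPM against 2.48, 2.13 and 2.24 CPM (1.06, SE 0.240, edgeR adjusted p = 0.00172). The non-cycling sums also held non-telencephalic sub-clusters, where Notch2 was 123, 171 and 259 CPM at P3. Among telencephalic sub-clusters, Notch2 was 24.0, 46.1 and 48.4 CPM in cycling ones and 41.9, 67.9 and 87.4 CPM in the others. How much of the Notch2 difference came from this mix was not tested. Calls in the telencephalic lineage alone are counted below.

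Both calls were lost when cells were reduced to 2000 UMIs before cycling was called, with log2 values of -0.75 for Notch2 and 0.63 for Dll1, and both were lost without P3 replicate 3 (-0.95 and 0.95). Hes1 was higher in cycling cells of every library without reaching the fold threshold, at 381, 411 and 358 CPM against 321, 345 and 271 CPM (0.39, SE 0.0522, edgeR adjusted p = 1.81e-05). Hey1 (-0.43), Hey2 (-0.60), Heyl (-0.64), Notch1 (-0.27) and Hes5 (-0.17) were lower in cycling cells in every library with an edgeR adjusted p of at most 0.0221, below the fold threshold, and Jag1 differed by 0.01.

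Of the 54 further pathway genes, 45 were tested in this comparison. In cycling cells 4 were called higher and 5 lower, or 20%, against 17% over all genes. Those higher included Neurl1b (log2 4.66), Dll3 (1.24) and the glycosyltransferase Mfng (1.07). The presenilin gene Psen2 (-1.81), Maml3 (-1.54), Hes7 (-1.20), Dtx3 (-1.07) and Numbl (-1.04) were lower.

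Endothelial cells were compared between END_17 at 3m and END_7 at P3, which the study clustered apart by expression. Total UMIs were 4200780 to 7386516 per library at P3 and 256977 to 562163 at 3m. Hes1 was the member called, with 581, 434 and 585 CPM at P3 and 340, 261 and 229 CPM at 3m (log2 -1.04, SE 0.200, edgeR adjusted p = 0.000493). Of 10271 genes, 22.3% were called, against 1 of the 9 members tested (11.1%). The Hes1 call was lost without P3 replicate 1 (-0.99), P3 replicate 3 (-0.93) or 3m replicate 3 (-0.98), in each case by the fold threshold. In the same sums, the oligodendrocyte markers were 0.711 to 1.43 CPM at P3 and 117 to 607 CPM at 3m, the neuron markers 5.55 to 16.7 and 122 to 280 CPM, and the median mitochondrial share 1.25 to 2.33% and 2.97 to 5.84%. Their part in the age differences was not tested.

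Dll4 had 89.1, 84.0 and 72.0 CPM at P3 and 62.3, 11.7 and 56.0 CPM at 3m, with no overlap, and a log2 fold change of -0.87 (SE 0.281, edgeR adjusted p = 0.0224) below the fold threshold. Without 3m replicate 1 or replicate 3 it was called (-1.24 and -1.06). Hey1 had 62.1, 33.1 and 27.9 CPM at P3 and 90.7, 62.3 and 56.0 CPM at 3m (0.71, SE 0.284, edgeR adjusted p = 0.0605). It was called without P3 replicate 1 (1.13). Notch1 (0.05), Notch2 (-0.03), Jag1 (-0.32), Hey2 (0.57) and Heyl (0.24) did not pass, and Hes5 (-1.20) rested on 5 UMIs at 3m.

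Among the 54 further genes, 37 were tested in endothelial cells, with 5 called higher and 2 lower, or 18.9%, against 22.3% over all genes. Nrarp fell from 131 ± 6.15 to 37.4 ± 2.87 CPM (log2 -1.92) and Mfng by 1.55 on the log2 scale. Notch3 (1.22), Jag2, a Jagged ligand (1.35), Lfng, a glycosyltransferase (1.35), Aph1b (1.66) and the ligase gene Mib2 (1.71) were called higher. Summed mural markers in these endothelial sums were 1915 to 3333 CPM at P3 and 6211 to 6975 CPM at 3m, so they moved with Notch3, and their part in the result was not tested.

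A test of whether the age difference itself differed between endothelial and astroglial cells called none of the 9 members tested, by edgeR or by DESeq2, against 16% of 12767 genes by edgeR. At an unadjusted edgeR p under 0.05 there were 2 members, Jag1 (endothelial minus astroglial log2 fold change -0.91, SE 0.406, adjusted p = 0.119) and Hey2 (1.11, SE 0.479, adjusted p = 0.108). Hes1 differed by 0.46 (SE 0.225, adjusted p = 0.161). Of the 54 further genes 43 were tested, with 5 called above and 6 below 0, or 25.6%, against 16% over all genes. Notch3 (3.03) was above 0, being lower at 3m in astroglia and higher at 3m in endothelial cells. Dtx4 (1.68), the protease gene Adam17 (1.13) and Poglut1 (1.00) were also above 0. Maml3 (-3.08), Nrarp (-1.30), Tle4 (-1.18), Aph1a (-1.18) and Tle1 (-1.05) were below 0.

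**Figure D5:**
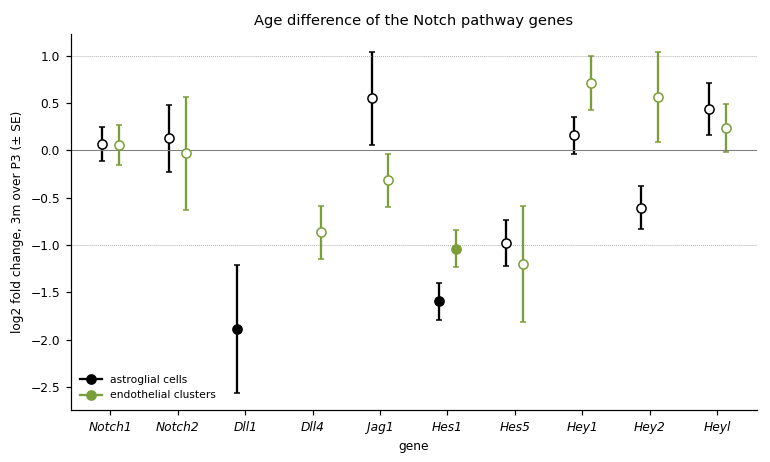
log2 fold change, 3m over P3, with its SE, of each tested gene in astroglial cells (black) and endothelial clusters (green); filled points were called and dotted lines mark the fold threshold. Hes1 is below 0 in both, at -1.59 and -1.04.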

How the data were processed

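Single cells from 6 libraries (3 at P3, 3 at 3m) were analysed from the deposited table of UMI counts, which the authors made with Cell Ranger on mm10 and merged in Seurat (3.1.1 in the submitters' processing notes, a later release in the study's methods). The authors' annotation gives clusters, astroglial sub-clusters and pseudotime bins for cells above 500 genes and below 10% mitochondrial UMIs. Doublets were not removed here. UMI counts were added up within each library, and edgeR 4.0.16 (R 4.3.3; quasi-likelihood, TMM, filterByExpr, Benjamini-Hochberg over all genes tested) was the test, with DESeq2 1.42.0 as an alternative. Scripts were tested on simulated data. Depth was 5471573 to 37795021 UMIs per library, with the lower totals at 3m, and intervals cover counting error only. The p-values measure the spread between these libraries. The members and gene lists were chosen with earlier results of these data known. Named are the 10 members, further pathway genes that were called or among the 3 highest of their list, and the genes most like each member over clusters. Some further pathway genes enter the counts but are not reported here by name. Predicted genes and clone names were left out of that last search.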

Additional observations from a re-analysis of the deposited data

How the results depend on the processing

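Hes1 stayed called in astroglia under all 18 alternatives, between -1.79 and -1.42 on the log2 scale. The other calls were less stable. The number of members called between ages in astroglia (2) was 1 without cycling sub-clusters, in cells free of other-type markers, with stricter cells and with libraries thinned to the smallest total, and 1 to 2 when a library was left out. It was 3, with Hes5, under DESeq2-type scaling, without scaling, without a filter on low counts and without the multiciliated cluster. The number of all genes called (4344) was 2743 after that thinning, which removes UMIs. In cycling cells the 2 members called became 1 without scaling, 1 without the replicate block, 1 in the telencephalic lineage and 0 when cells were thinned, and 0 to 2 when a library was left out. In endothelial cells 1 became 0 without scaling, and 0 to 2 with a library left out. In the test between classes 0 became 1 without scaling, and 0 to 2 with a library left out. The cause was not tested.

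Without scaling, the all-gene median on the log2 scale moved from -0.04 to -0.24 in astroglia and from 0.05 to 0.41 between classes, and the share of calls that were higher moved from 49.3 to 38.6% and from 52.0 to 76.0%.

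Signs turned for genes that were not called. In astroglia between ages, Notch1 was -0.12 (no scaling beyond library totals), -0.051 (no filter on low counts), -0.052 (only cells without UMIs of other-type markers), -0.24 (stricter cell filter), -0.0038 (telencephalic lineage without cycling sub-clusters), -0.032 to 0.28 (with a library left out). Hey1 was -0.034 (no scaling beyond library totals). Notch2 was -0.074 (no scaling beyond library totals), -0.059 (without cycling sub-clusters 6 and 8), -0.37 to 0.54 (with a library left out). Heyl was -0.66 (telencephalic lineage only), -0.85 (telencephalic lineage without cycling sub-clusters). In cycling cells, Jag1 was -0.085 (no scaling beyond library totals), -0.0304 (no filter on low counts), -0.019 (no replicate block), -0.27 (cells thinned before cycling is called), -0.28 to 0.21 (with a library left out). In endothelial cells, Notch2 was 0.087 (no scaling beyond library totals), 0.10 (replicate block), -0.38 to 0.32 (with a library left out). Notch1 was -0.063 (no filter on low counts), -0.15 to 0.27 (with a library left out). Hey2 was -0.14 to 1.01 (with a library left out). Between classes, Notch1 was 0.27 (no scaling beyond library totals), -0.27 to 0.026 (with a library left out). Notch2 was 0.30 (no scaling beyond library totals), -0.32 to 0.12 (with a library left out). Heyl was 0.12 (no scaling beyond library totals). Hes5 was 0.0202 (no scaling beyond library totals), -1.15 to 0.085 (with a library left out). Dll4 was -2.37 to 2.52 (with a library left out).

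The deviations of P3 and 3m libraries of the same number correlated at 0.206, 0.0993 and 0.039. Pairs of different number ran from -0.173 to 0.142. Deviations from a mean of 3 libraries depend on each other, so these values cannot show whether such libraries share a batch. With the replicate block 4420 genes were called in astroglia and 2324 in endothelial cells, with 2 and 1 members. Without the replicate block 2040 were called in cycling cells, where Notch2 lost its call (-1.11, edgeR adjusted p = 0.0666), and 1839 between classes. Heyl late against early in pseudotime moved from 1.71 to 2.28 with at least 30 cells in a bin. The 3m sums, with 1157485 to 1843998 astroglial UMIs, limit the low genes Dll1 and Dll4.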
